A study of Rattus norvegicus with 6 samples.

Results

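The genes described here are 48 nuclear genes for subunits of the mitochondrial respiratory chain and ATP synthase, grouped by complex as 24 of complex I (Nduf), 4 of complex II (Sdh), 6 of complex III (Uqcr and Cyc1), 7 of complex IV (Cox) and 6 of complex V (Atp5), with the carrier Cycs apart. They were chosen by symbol, not by a measured value, and 45 of the 48 had a measured probe among the 32663 gene entries tested, of which 11831 carried a gene symbol. No probe was matched to Ndufa8, Ndufs6 or Cyc1, which were not analysed here. The tissue was kidney cortex (renal cortex) from male rats of the Sprague-Dawley strain, Crl:CD(SD), aged 5 weeks when bought. One group of 3 animals received corn oil, the vehicle, and the other group of 3 received anthraquinone, a tricyclic aromatic quinone, at 1000 mg/kg/day, both for 4 weeks. Each animal was hybridised to 1 single-colour (Cy3) Agilent array. The comparison of the groups asks how the treatment changed renal cortical messenger RNA.

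Oxidative phosphorylation takes electrons from NADH at complex I and from succinate at complex II. They pass through coenzyme Q, complex III and cytochrome c to oxygen at complex IV, while complexes I, III and IV pump protons out of the matrix. ATP synthase, complex V, uses the returning protons to make ATP. The proximal tubule, which fills most of the renal cortex, is rich in mitochondria and depends on this pathway to reabsorb salt and solutes.

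Values are log2 intensities minus the array's 75th percentile, so 0 is the level of the 75th percentile probe and a difference of 1 is a doubling. That percentile lay between 903 and 1190 intensity units on the corn oil arrays and between 844 and 880 on the anthraquinone arrays. Of the probes, 68.7 to 70.7% were well above background with corn oil and 64.2 to 66.1% with anthraquinone. Corn oil replicate 1 was alone on slide 1, the other 5 arrays shared slide 2, and within slide 2 the row on the slide and the group cannot be told apart. Each array is 1 animal, and 3 arrays a group limit how finely a difference can be placed. SEs and p-values are moderated ones from limma, which draws each gene's variance between animals toward a value shared over all entries. Where a gene's animals lie close together, its SE is therefore wider than their own spread gives. In whole cortex, fewer cells of a type and less RNA per cell cannot be told apart.

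Respiratory chain genes were slightly higher with anthraquinone as a group, and no single member passed the adjusted test. The median difference over the 45 measured members, anthraquinone minus corn oil, was 0.17 log2, with a range from -0.10 to 0.38. The same median over all entries was 0.0068. The difference was above 0 in 44 members as scaled here, in 27 after quantile normalization and in 25 when each was set against entries of similar signal. Each gene was read from its brightest probe. For 33 of the 45 members (73.3%) the 3 anthraquinone values all lay above the 3 corn oil values, against 14.9% of all entries. For 0 members did they all lie below, against 10.3% of all entries. In some of the 33, named below, the groups overlapped on another probe of the gene. At an unadjusted p under 0.05 in limma, 19 members (42.2%) were higher, against 9.43% of all entries, and 0 were lower, against 7.69%. The count of higher members was 0 after quantile normalization and 1 relative to entries of similar signal, and leaving out each array gave 8 to 15, the lowest without replicate 2 of either group. After Benjamini-Hochberg adjustment over all entries, 0 members passed 0.05, against 9 entries in all (0.0276%), and the smallest member value was 0.164, for Uqcrb.

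Members have bright probes, and bright probes in general were higher with anthraquinone. The probes of 44 members lay in the brightest of 10 equal bins of entries by mean signal, which describes probe brightness and not transcript number. Median differences ran from -0.16 in the dimmest of those bins to 0.15 in the brightest. In the brightest twentieth, which held 1634 entries and 39 of the members, the median of all entries was 0.18 and 87.1% of entries were above 0. Of those 1634 entries, 56.6% had anthraquinone values all above the corn oil values and 1.47% had them all below. Of the 39 members there, 29 (74.4%) had them all above, and the members' own median was 0.18. At an unadjusted p under 0.05 in limma, 41.6% of that twentieth was higher, against 42.2% of all 45 measured members. The share for the 39 members in that twentieth alone is not given here. The shares of bright entries, not those of all entries, are the nearest comparison for these genes.

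**Figure D1:**
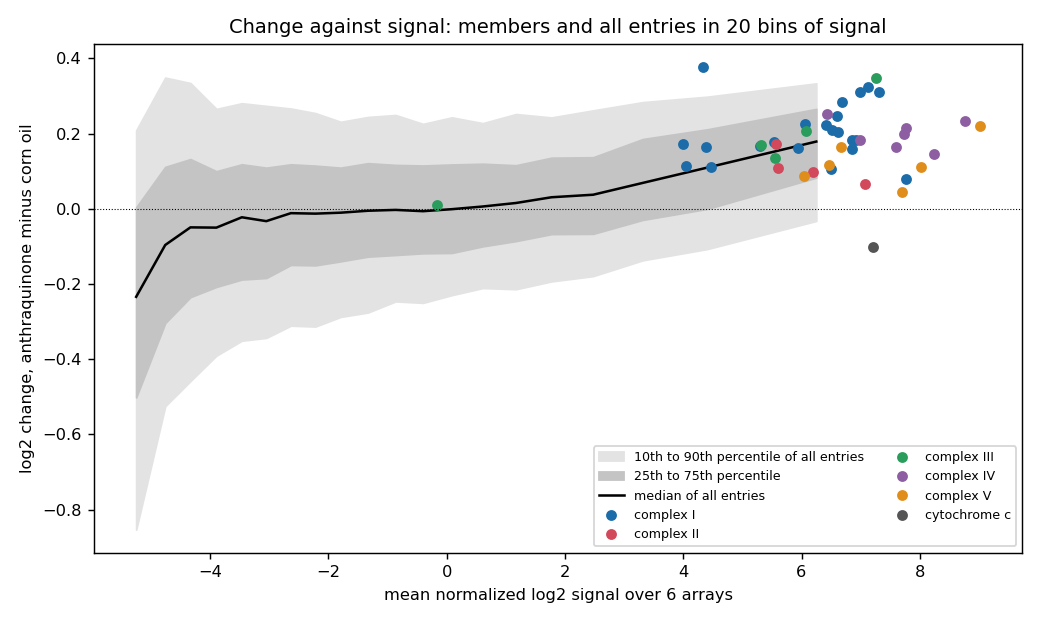
Difference between anthraquinone and corn oil (log2, y axis) against mean normalized log2 signal over the 6 arrays (x axis) for the 45 measured members, coloured by complex, with the median and percentile bands of all entries in 20 bins of signal. The line of all entries climbs to 0.18 in the brightest bin, and most members lie near it, with Cycs at -0.10 below and Uqcrb at 0.35 above.

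Neither rank nor share of the signal set the members apart between the groups. The median member stood at the 98.2, 98.1 and 98.0th percentile of entries on corn oil replicates 1, 2 and 3 and at the 98.3, 98.1 and 98.0th on anthraquinone replicates 1, 2 and 3, so its rank did not separate the groups. The measured members' probes held 2.04, 1.99 and 1.96% of the summed signal with corn oil and 2.12, 2.05 and 2.00% with anthraquinone. Those ranges overlap. The brightest twentieth as a whole held 67.9, 69.5 and 69.7% with corn oil and 70.4, 70.7 and 70.5% with anthraquinone, which do not overlap. Whether the spread of signal between the arrays sets the members' difference was not tested.

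Once the general difference of bright entries was taken off, the members as a set centred near 0. For most members, including all of complexes II, IV and V, the value taken off was 0.18, so the spacing of those complexes was unchanged. As scaled before, the medians of those 3 were 0.10, 0.20 and 0.11. Relative to the median of entries of similar signal (20 bins), the median over all members was 0.0045. It was 0.027 in complex I, 0.011 in complex III and 0.021 in complex IV, and it was -0.077 in complex II and -0.064 in complex V. After quantile normalization, which gives all 6 arrays the same distribution of intensities, the medians were 0.040, 0.045 and -0.0043 for complexes I, III and IV and -0.057 and -0.066 for complexes II and V. On either scale 0 members passed the adjusted test. Centring left 4 members with anthraquinone values all above corn oil (Ndufb3, Ndufb9, Ndufv1 and Uqcrb), against 11.1% of all entries, and 2 all below (Ndufb6 and Sdhb), against 10.8%. Quantile normalization left 3 above (Ndufa2, Ndufb9 and Uqcrb), against 12%, and 0 below, against 10.6%. As shares of the 45 members, all 4 counts are below the shares in all entries. No test of the difference between complexes was made.

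**Figure D2:**
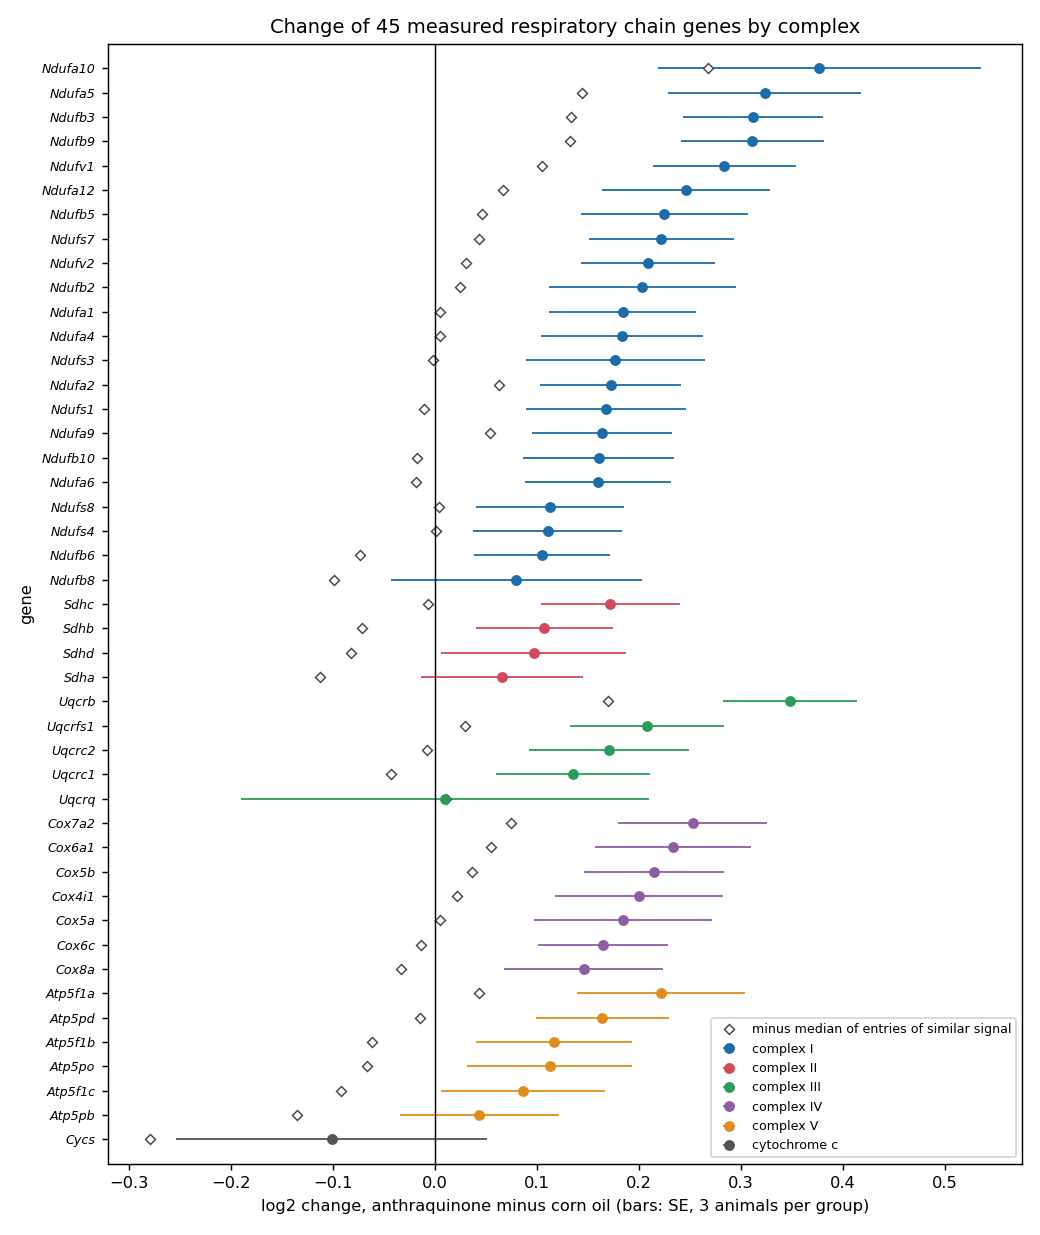
Difference between anthraquinone and corn oil (log2, x axis) of each of the 45 measured members (y axis, by complex), with bars of 1 moderated SE from limma (3 animals per group), and open diamonds for the same difference minus the median of entries of similar signal. The filled points run from -0.10 for Cycs to 0.38 for Ndufa10, and 20 of the 45 diamonds lie at or below 0.

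Promoters of the members were set beside these values as a description only. Most members lay above 0 as scaled before, as did 87.1% of the brightest twentieth of entries. Relative to entries of similar signal, 25 of the 45 measured members lay above 0. RefSeq windows on rat assembly GRCr8, from 250 bases before the annotated start to 50 after it, were given for 41 of the 48 members. Of the members with separate groups, Uqcrb and Ndufa5 had the largest increases and none had a decrease. Uqcrb had no entry in the table. Ndufa5 is therefore shown, together with Ndufb3, the next largest with an entry, and with Sdha and Cox8a, whose windows held the most matches. The last 3 were chosen after their values were seen. The 250 bases before the start are printed 5′ to 3′ on the gene's strand, with matches to the NRF1 motif (GCGCA, any base, then GCGC), the ETS and GABP motif (CCGGAAG), the YY1 motif (AAGATGGC) or the cyclic AMP response element, CRE (TGACGTCA), in capitals on either strand.
Ndufa5, chr4:53971236-53971485, minus strand: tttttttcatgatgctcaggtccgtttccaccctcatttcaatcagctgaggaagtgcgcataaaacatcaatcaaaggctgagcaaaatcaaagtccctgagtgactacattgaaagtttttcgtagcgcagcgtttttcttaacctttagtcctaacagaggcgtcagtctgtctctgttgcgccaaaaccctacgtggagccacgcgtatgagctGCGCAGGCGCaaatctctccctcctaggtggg
Ndufb3, chr9:67623167-67623416, plus strand: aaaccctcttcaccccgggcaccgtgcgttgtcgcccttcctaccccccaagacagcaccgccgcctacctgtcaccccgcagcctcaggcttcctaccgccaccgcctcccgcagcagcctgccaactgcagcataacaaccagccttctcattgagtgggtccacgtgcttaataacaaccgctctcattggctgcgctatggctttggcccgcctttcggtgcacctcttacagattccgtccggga
Sdha, chr1:30764303-30764552, plus strand: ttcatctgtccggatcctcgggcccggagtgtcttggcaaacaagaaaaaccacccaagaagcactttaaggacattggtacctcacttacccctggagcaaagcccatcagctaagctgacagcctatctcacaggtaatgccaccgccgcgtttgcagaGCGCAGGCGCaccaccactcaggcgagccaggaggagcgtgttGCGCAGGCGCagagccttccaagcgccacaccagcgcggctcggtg
Cox8a, chr1:213833624-213833873, minus strand: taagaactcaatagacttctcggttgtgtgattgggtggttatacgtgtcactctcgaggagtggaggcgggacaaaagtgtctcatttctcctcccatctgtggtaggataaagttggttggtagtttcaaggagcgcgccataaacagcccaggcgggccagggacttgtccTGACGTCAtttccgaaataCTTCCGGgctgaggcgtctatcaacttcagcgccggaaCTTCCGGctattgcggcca
The Ndufa5 window held 1 NRF1 match, whose first base lay at -32 from the start. Ndufb3 had a match to none of these 4 motifs. Sdha held 3 NRF1 matches, beginning at -89, -46 and -1, the last of which crosses the start and is not shown whole. Cox8a held a CRE match at -76, ETS matches at -57 and -19, and a YY1 match at -4 that also crosses the start.

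Over the 41 windows, 28 held at least 1 match to the NRF1, ETS, YY1 or CRE motif. The same share was not taken over other windows, so that count has no comparison. All 4 motifs belong to factors known for nuclear mitochondrial genes. The ETS motif was in 14 member windows (34.1%), against 15.2% of the 534 other named genes of the brightest twentieth and 8.75% of all 33469 windows. YY1 was in 11 (26.8%), 7 of them in complex I, against 5.06 and 3.17%. NRF1 was in 7 (17.1%), against 9.55 and 4.26%, and CRE in 4 (9.76%), against 2.62 and 1.83%. The estrogen-related receptor motif (TCAAGGTCA) was in 1 window (2.44%), that of Sdhd, against 0.56 and 0.43%. The antioxidant response element (TGACNNNGC), the sequence bound by NRF2 after oxidative or electrophilic stress, was in 8 (19.5%), against 18.0 and 12.1%. SP1 (GGGCGG) was in 17 (41.5%), against 60.7 and 33.1%. Members and bright genes count 1 window per gene, while the set of all windows is not so limited. Over 9656 measured genes, 1 window each, shares were 16.1% for ETS, 4.91% for YY1, 8.78% for NRF1 and 2.91% for CRE. For the estrogen-related receptor motif, the antioxidant response element and SP1 they were 0.23, 14.3 and 57.3%. Both strands were searched and no 2 of these motifs were merged where they overlapped. A match is a stretch of letters in a window and not a measured binding site.

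The median difference was 0.12 over the 6 measured members with an NRF1 match and 0.17 over the 34 without. It was 0.17 with an ETS match and 0.17 without, 0.15 with a YY1 match and 0.18 without, 0.17 with a CRE match and 0.17 without, and 0.17 with an antioxidant response element and 0.17 without. For SP1 it was 0.18 over 16 members with a match and 0.15 over 24 without. The 1 member with an estrogen-related receptor match, Sdhd, was at 0.097, and the median of the other 39 was 0.17. These medians are descriptions with no test of the difference between them.

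**Figure D3:**
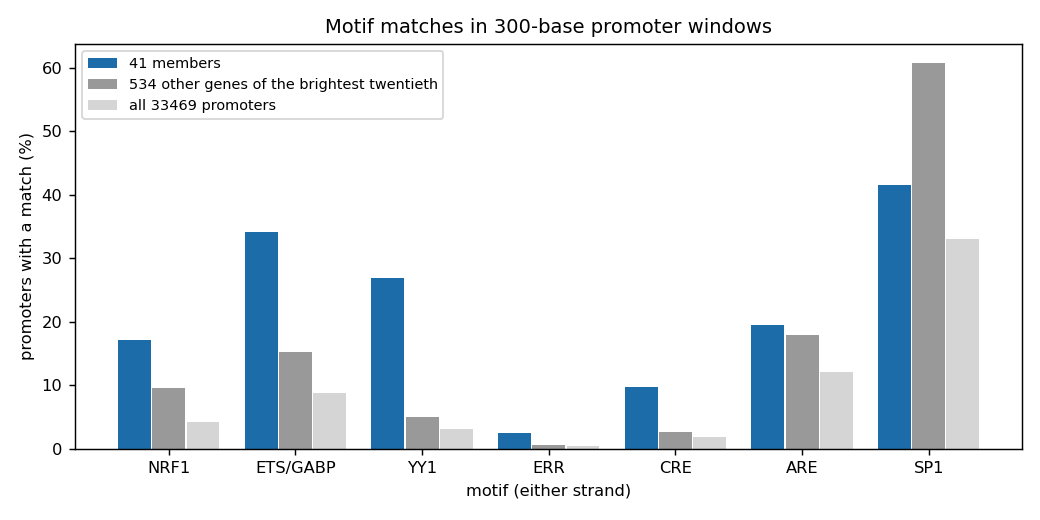
Share of promoter windows with at least 1 match (y axis, %) for 7 motifs (x axis) in 41 members, in 534 other named genes of the brightest twentieth of entries and in all 33469 windows, which are not limited to 1 per gene. ETS (34.1%), YY1 (26.8%) and NRF1 (17.1%) shares are higher in the members than in both other sets, while SP1 (41.5%) is lower in the members than in the bright genes (60.7%).

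Complex I, the entry point for NADH, had 22 of 24 genes measured. All 22 differences were above 0 as scaled here, from 0.080 to 0.38, with a median of 0.18, and 19 had separate groups. After quantile normalization 18 of 22 stayed above 0, and 16 did so relative to entries of similar signal. Groups were separate and higher in 2 after quantile normalization, and in 3, with 1 lower, relative to entries of similar signal. Counts of separate groups in this and the other complexes stand beside 14.9% of all entries and 56.6% of the brightest twentieth. In the following sentences array values are given in the order of replicates 1, 2 and 3. No member's value was saturated, and every member's probe was well above background on all 6 arrays.

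The catalytic core of complex I carries the flavin and the iron-sulfur clusters. Its 6 measured nuclear genes all had separate groups on the brightest probe, with a median difference of 0.19. On the second probes of Ndufs1, Ndufs7 and Ndufs8 the groups overlapped, at differences of 0.050, 0.23 and 0.050. The second probe of Ndufv1 stayed separate. Ndufv1, which binds NADH and the flavin, read 6.53, 6.59 and 6.52 with corn oil and 6.83, 6.77 and 6.88 with anthraquinone. Every treated animal was above every control, by a mean of 0.28 ± 0.070 (SE, n = 3 per group), adjusted p = 0.193. Its second probe gave the same difference to 2 decimals, 0.28, and the value was 0.10 relative to entries of similar signal and 0.097 after quantile normalization. Ndufv2, its partner with an iron-sulfur cluster, read 6.41, 6.39 and 6.45 with corn oil and 6.60, 6.65 and 6.63 with anthraquinone, a difference of 0.21 ± 0.066 (SE, n = 3 per group). Ndufs1, the largest iron-sulfur subunit, read 5.27, 5.23 and 5.13 with corn oil and 5.35, 5.46 and 5.33 with anthraquinone, a difference of 0.17 ± 0.079 (SE, n = 3 per group), and its second probe gave 0.050. For Ndufv2 the difference was 0.030 relative to entries of similar signal and 0.031 after quantile normalization, and for Ndufs1 it was -0.011 and 0.042 on the same scales.

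Ndufs7 holds the last iron-sulfur cluster before coenzyme Q. It read 6.34, 6.26 and 6.30 with corn oil and 6.52, 6.58 and 6.47 with anthraquinone, with a difference of 0.22 ± 0.071 (SE, n = 3 per group). Ndufs8, which feeds that cluster, read 4.01, 3.95 and 4.03 with corn oil and 4.15, 4.15 and 4.03 with anthraquinone, with a difference of 0.11 ± 0.072 (SE, n = 3 per group). In Ndufs8 the third anthraquinone value only just cleared the highest control. Ndufs3, a core subunit near the coenzyme Q site, read 5.45, 5.45 and 5.42 with corn oil and 5.68, 5.70 and 5.47 with anthraquinone, with a difference of 0.18 ± 0.088 (SE, n = 3 per group). There too anthraquinone replicate 3 lay near the controls and the other 2 treated animals lay well above. Set against entries of similar signal, Ndufs7 was at 0.043, Ndufs8 at 0.0034 and Ndufs3 at -0.0018, and after quantile normalization they were at 0.048, 0.029 and 0.037.

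Accessory subunits of the Ndufa series had a median difference of 0.18 over 8 genes, with 7 of the 8 separate. Ndufa5, an accessory subunit of the peripheral arm, read 7.11, 6.82 and 6.97 with corn oil and 7.32, 7.30 and 7.25 with anthraquinone. Its lowest treated value was above its highest control, and the difference was 0.32 ± 0.094 (SE, n = 3 per group), adjusted p = 0.211. Setting it against entries of similar signal left 0.14. Ndufa10, an accessory subunit that resembles nucleoside kinases, had the largest difference of all members, but its groups overlapped. It read 4.42, 4.05 and 3.98 with corn oil and 4.55, 4.31 and 4.72 with anthraquinone, where corn oil replicate 1 stood above anthraquinone replicate 2. The difference of 0.38 ± 0.16 (SE, n = 3 per group) had adjusted p = 0.299, and leaving out each array in turn gave 0.28 to 0.51.

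Ndufa12, another peripheral arm subunit, read 6.59, 6.45 and 6.38 with corn oil and 6.75, 6.67 and 6.74 with anthraquinone, a difference of 0.25 ± 0.082 (SE, n = 3 per group). Ndufa1, a small membrane protein needed for assembly, read 6.83, 6.72 and 6.71 with corn oil and 6.98, 6.95 and 6.89 with anthraquinone, a difference of 0.18 ± 0.072 (SE, n = 3 per group). Ndufa2, which has a thioredoxin-like fold, read 3.96, 3.92 and 3.85 with corn oil and 4.07, 4.06 and 4.11 with anthraquinone, a difference of 0.17 ± 0.069 (SE, n = 3 per group). All 3 kept a positive value on the other scales, with Ndufa12 at 0.067 and 0.064, Ndufa1 at 0.0051 and 0.0070, and Ndufa2 at 0.063 and 0.093, relative to similar entries and after quantile normalization. Ndufa6, which binds the mitochondrial acyl carrier protein, read 6.82, 6.82 and 6.70 with corn oil and 6.92, 6.94 and 6.95 with anthraquinone, a difference of 0.16 ± 0.071 (SE, n = 3 per group). Ndufa9, a nucleotide-binding subunit where the peripheral and membrane arms meet, read 4.35, 4.33 and 4.26 with corn oil and 4.50, 4.49 and 4.43 with anthraquinone, a difference of 0.16 ± 0.069 (SE, n = 3 per group). Ndufa6 turned sign on the other scales, to -0.019 and -0.017, while Ndufa9 stayed at 0.054 and 0.064. Ndufa4, grouped here by its name but now regarded as a complex IV subunit, read 6.93, 6.82 and 6.75 with corn oil and 7.07, 7.01 and 6.96 with anthraquinone, a difference of 0.18 ± 0.080 (SE, n = 3 per group). That difference was 0.0045 relative to entries of similar signal and 0.00018 after quantile normalization.

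Ndufb subunits sit in the membrane arm. Their median difference was 0.20 over 7 genes, with 5 of the 7 separate. Ndufb3 read 7.20, 7.13 and 7.11 with corn oil and 7.47, 7.42 and 7.49 with anthraquinone. Ndufb9 read 6.86, 6.83 and 6.83 with corn oil and 7.12, 7.11 and 7.22 with anthraquinone. The lowest treated value was 0.22 above the highest control in Ndufb3 and 0.25 above it in Ndufb9. Ndufb3 differed by 0.31 ± 0.069 (SE, n = 3 per group), 1.24-fold, with adjusted p = 0.188. Ndufb9, which like Ndufa6 binds acyl carrier protein, differed by 0.31 ± 0.070 (SE, n = 3 per group), 1.24-fold, with adjusted p = 0.191. Relative to entries of similar signal both kept separate groups, at 0.13 and 0.13. After quantile normalization Ndufb9 stayed separate at 0.13 and Ndufb3, at 0.10, overlapped.

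Ndufb5 read 6.06, 5.93 and 5.87 with corn oil and 6.16, 6.23 and 6.14 with anthraquinone, a difference of 0.22 ± 0.082 (SE, n = 3 per group). Ndufb10, which faces the intermembrane space, read 5.78, 5.91 and 5.87 with corn oil and 6.05, 6.04 and 5.96 with anthraquinone, a difference of 0.16 ± 0.074 (SE, n = 3 per group). Ndufb6 read 6.40, 6.49 and 6.44 with corn oil and 6.56, 6.54 and 6.54 with anthraquinone, a difference of 0.10 ± 0.067 (SE, n = 3 per group). Of these, Ndufb5 remained above 0 at 0.046 relative to similar entries and 0.075 after quantile normalization. Ndufb10 moved to -0.018 and -0.0013 on those scales. Ndufb6 moved to -0.074 and -0.077, and relative to similar entries its treated values all lay below its controls. Ndufb2 overlapped, with 6.61, 6.52 and 6.43 with corn oil and 6.74, 6.82 and 6.61 with anthraquinone and a difference of 0.20 ± 0.092 (SE, n = 3 per group). Ndufb8 had the smallest difference in complex I. It read 7.68, 7.87 and 7.65 with corn oil and 8.02, 7.63 and 7.79 with anthraquinone, so the lowest value of all 6 came from a treated animal and the highest from another. Its difference was 0.080 ± 0.12 (SE, n = 3 per group), adjusted p = 0.778, with -0.021 to 0.17 on leaving out each array. It turned sign on the other scales, at -0.099 relative to entries of similar signal and -0.14 after quantile normalization.

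Ndufs4, an accessory subunit whose human gene is mutated in Leigh syndrome, depended on the probe. The brighter probe read 4.49, 4.34 and 4.43 with corn oil and 4.53, 4.54 and 4.51 with anthraquinone, a difference of 0.11 ± 0.073 (SE, n = 3 per group) with separate groups. Its other probe was far dimmer, at -1.39, -1.49 and -1.08 with corn oil and -1.39, -1.33 and -1.64 with anthraquinone. That probe gave -0.14 with overlapping groups, and the mean of the probes gave -0.013. Across the 20 members with 2 or more measured probes, 17 had probes whose differences agreed to within 0.1, and the exceptions were Ndufs4, Ndufs1 and Cycs. Separation of the groups was shared less often. Ndufb10, Ndufs1, Ndufs4, Ndufs7, Ndufs8, Uqcrc1 and Cox6c had separate groups on the brightest probe and overlapping groups on another.

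**Figure D4:**
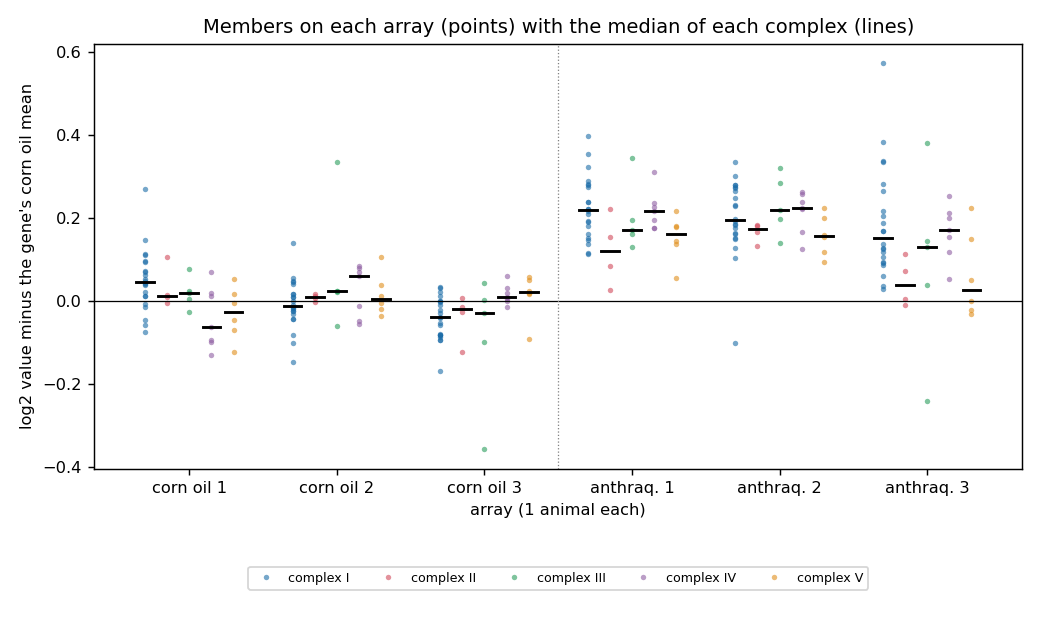
Each point is 1 member of complexes I to V on 1 array, as its log2 value minus its mean over the 3 corn oil arrays (y axis), for 3 corn oil and 3 anthraquinone animals (x axis), and black lines are the median of each complex. All 5 medians are above 0 on the 3 anthraquinone arrays, from 0.025 for complex V to 0.22 for complex IV, on the 75th percentile scale, while after quantile normalization the median differences of complexes II, IV and V are -0.057, -0.0043 and -0.066, with 1 of 4, 3 of 7 and 1 of 6 of their genes above 0.

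Complex II oxidises succinate and is the 1 complex whose genes are all nuclear. Its 4 genes had a median difference of 0.10, and 2 had separate groups. Sdhc, a membrane anchor, read 5.49, 5.49 and 5.47 with corn oil and 5.70, 5.67 and 5.60 with anthraquinone, a difference of 0.17 ± 0.068 (SE, n = 3 per group), adjusted p = 0.281. Sdhb, the iron-sulfur subunit, read 5.55, 5.55 and 5.56 with corn oil and 5.64, 5.72 and 5.62 with anthraquinone, and its controls spanned 0.012 log2. Its difference was 0.11 ± 0.067 (SE, n = 3 per group), adjusted p = 0.455. Sdha, the catalytic flavoprotein whose promoter is printed above, read 7.06, 7.06 and 7.02 with corn oil and 7.07, 7.23 and 7.04 with anthraquinone. Here anthraquinone replicate 2 stood apart and the other 2 treated animals lay close to the controls, with a difference of 0.066 ± 0.080 (SE, n = 3 per group), adjusted p = 0.709. Sdhd, the other anchor, read 6.25, 6.16 and 6.03 with corn oil and 6.30, 6.28 and 6.15 with anthraquinone, a difference of 0.097 ± 0.091 (SE, n = 3 per group), and its groups overlapped. Relative to entries of similar signal all 4 were below 0, at -0.11 for Sdha, -0.071 for Sdhb, -0.0069 for Sdhc and -0.082 for Sdhd. The treated Sdhb values then all lay below the controls. After quantile normalization the 4 values were -0.13, -0.046, 0.022 and -0.069.

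Complex III passes electrons from coenzyme Q to cytochrome c, and it had the widest range of the complexes, from 0.0096 to 0.35, with 4 of 5 measured genes separate. Uqcrb, a small subunit at the coenzyme Q binding site, had the smallest adjusted p of all members. It read 7.06, 7.11 and 7.09 with corn oil and 7.43, 7.41 and 7.47 with anthraquinone. The 3 treated values spanned 0.061 and the lowest of them stood 0.30 above the highest control. The difference was 0.35 ± 0.066 (SE, n = 3 per group), 1.27-fold, adjusted p = 0.164. Its 4 probes gave 0.29 to 0.36, each with separate groups. It kept separate groups under both other scalings, at 0.17 relative to entries of similar signal and 0.14 after quantile normalization, and leaving out each array gave 0.33 to 0.36. Without the filter on dim probes, 13.4% of 49481 entries passed the adjusted test, and so did Uqcrb (adjusted p = 0.0255), Ndufb3 (adjusted p = 0.0467) and Ndufb9 (adjusted p = 0.0498) in limma.

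Uqcrfs1, the Rieske iron-sulfur protein, read 5.99, 5.91 and 6.01 with corn oil and 6.17, 6.25 and 6.12 with anthraquinone, a difference of 0.21 ± 0.075 (SE, n = 3 per group). Uqcrc2, a core scaffold protein, read 5.31, 5.25 and 5.13 with corn oil and 5.39, 5.45 and 5.36 with anthraquinone, a difference of 0.17 ± 0.078 (SE, n = 3 per group). Uqcrc1, its partner, read 5.48, 5.50 and 5.45 with corn oil and 5.65, 5.68 and 5.52 with anthraquinone, a difference of 0.14 ± 0.076 (SE, n = 3 per group). These 3 had separate groups on the brightest probe, while on a second probe of Uqcrc1 the groups overlapped, at 0.082. Set against entries of similar signal the 3 genes lay at 0.029, -0.0084 and -0.043, and after quantile normalization at 0.049, 0.045 and -0.014. Uqcrq, a small membrane subunit, was the 1 member outside the brightest of the 10 bins of signal. It read -0.14, 0.17 and -0.52 with corn oil and -0.03, -0.02 and -0.40 with anthraquinone, with more spread within the groups than between them, and its difference was 0.0096 ± 0.20 (SE, n = 3 per group), adjusted p = 0.988.

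Cytochrome c, Cycs, the soluble carrier between complexes III and IV and a trigger of apoptosis once released, was the only measured member with a value below 0 on the 75th percentile scale. It read 7.39, 7.40 and 6.99 with corn oil and 7.33, 6.96 and 7.19 with anthraquinone. The groups overlapped fully, since corn oil replicate 3 and anthraquinone replicate 2 were the low animals of their groups. That held on all 5 of its probes, which gave differences from -0.16 to -0.017. The difference of the brightest probe was -0.10 ± 0.15 (SE, n = 3 per group), adjusted p = 0.772, and it was -0.28 relative to entries of similar signal and -0.28 after quantile normalization. Leaving out each array gave -0.24 to -0.0023. Without corn oil replicate 3 the treated values all lay below the remaining 2 controls on the brightest probe and on 2 others, while on the other 2 probes the groups still overlapped.

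**Figure D5:**
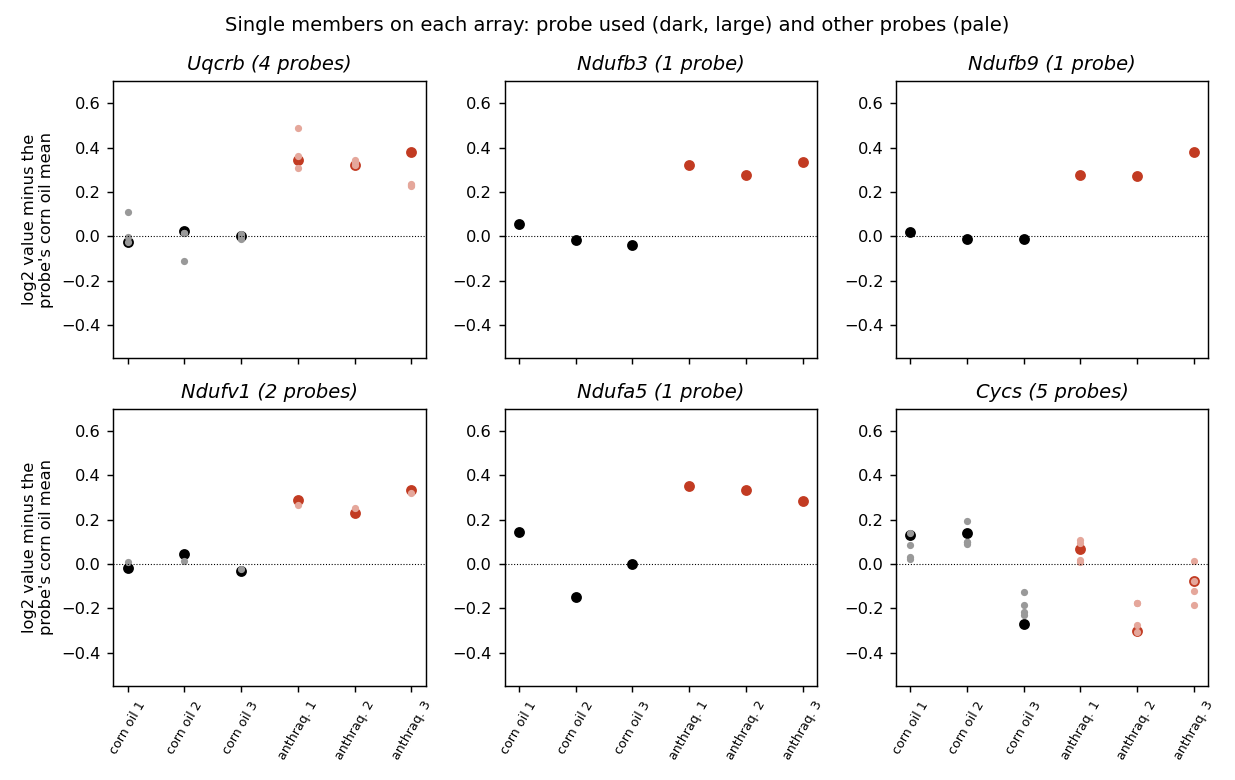
Values of 6 members on each array (x axis) as the log2 value minus the probe's mean over the 3 corn oil animals (y axis), with the brightest probe in large dark points and other probes of the gene in small pale ones. All anthraquinone points of Uqcrb, Ndufb3, Ndufb9, Ndufv1 and Ndufa5 lie above the corn oil points of the same probe, while those of Cycs overlap on each of its 5 probes.

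Complex IV reduces oxygen. Its 7 genes were the most alike of the complexes, with differences from 0.15 to 0.25 and a median of 0.20. The SD between genes was 0.038, and the median moderated SE of 1 gene was 0.076. Groups were separate in 6 of the 7, and in 0 after quantile normalization or relative to entries of similar signal. Cox7a2, the isoform of subunit VIIa found in most tissues, read 6.24, 6.36 and 6.31 with corn oil and 6.61, 6.54 and 6.52 with anthraquinone, and its difference was 0.25 ± 0.073 (SE, n = 3 per group), adjusted p = 0.211. Cox6a1, the non-muscle isoform of subunit VIa, read 8.54, 8.72 and 8.66 with corn oil and 8.87, 8.86 and 8.89 with anthraquinone, and its difference was 0.23 ± 0.076 (SE, n = 3 per group), adjusted p = 0.230. For both, the treated animals were closer to each other than the controls were. Cox5b, a zinc-binding subunit, read 7.67, 7.61 and 7.68 with corn oil and 7.87, 7.91 and 7.83 with anthraquinone, a difference of 0.21 ± 0.069 (SE, n = 3 per group). Cox7a2, Cox6a1 and Cox5b stayed above 0 relative to similar entries, at 0.074, 0.055 and 0.036, and after quantile normalization, at 0.072, 0.054 and 0.0039.

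Cox4i1, the main isoform of a regulatory subunit, read 7.50, 7.70 and 7.69 with corn oil and 7.81, 7.86 and 7.83 with anthraquinone, a difference of 0.20 ± 0.083 (SE, n = 3 per group). Cox6c read 7.52, 7.50 and 7.51 with corn oil and 7.68, 7.67 and 7.66 with anthraquinone, a difference of 0.16 ± 0.064 (SE, n = 3 per group). Cox8a, the isoform of subunit VIII found in most tissues, whose promoter is printed above, read 8.08, 8.25 and 8.18 with corn oil and 8.36, 8.30 and 8.29 with anthraquinone, a difference of 0.15 ± 0.078 (SE, n = 3 per group), adjusted p = 0.388. Cox6c had the smallest SE of any member, its controls spanning 0.025 and its treated animals 0.022. On its other probe the groups overlapped, with a difference of 0.11. Relative to entries of similar signal, Cox4i1 was at 0.021, Cox6c at -0.014 and Cox8a at -0.033. After quantile normalization all 3 were below 0, at -0.011, -0.018 and -0.053. Cox5a, which binds thyroid hormone metabolites, was the 1 gene of this complex that overlapped. It read 6.97, 6.85 and 6.89 with corn oil and 7.14, 7.17 and 6.96 with anthraquinone, where anthraquinone replicate 3 fell under corn oil replicate 1, and its difference was 0.18 ± 0.087 (SE, n = 3 per group), or 0.0053 relative to entries of similar signal and -0.0043 after quantile normalization.

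Complex V makes ATP. Its 6 genes had a median difference of 0.11, from 0.043 to 0.22, and 2 had separate groups. After quantile normalization or relative to entries of similar signal, 0 had separate groups. Atp5f1a, the alpha subunit of the catalytic head, read 8.79, 9.02 and 8.93 with corn oil and 9.13, 9.13 and 9.14 with anthraquinone. The treated animals spanned 0.0089 log2 and the controls 0.23, and the difference was 0.22 ± 0.083 (SE, n = 3 per group), adjusted p = 0.261, with 0.13 from its second probe. Atp5pd, a subunit of the peripheral stalk, read 6.58, 6.57 and 6.61 with corn oil and 6.73, 6.79 and 6.74 with anthraquinone, a difference of 0.16 ± 0.065 (SE, n = 3 per group). Atp5f1b, the catalytic beta subunit, read 6.33, 6.41 and 6.46 with corn oil and 6.58, 6.52 and 6.45 with anthraquinone, a difference of 0.12 ± 0.076 (SE, n = 3 per group). Its groups overlapped narrowly, since anthraquinone replicate 3 was just under corn oil replicate 3. Relative to entries of similar signal, Atp5f1a was at 0.043, Atp5pd at -0.015 and Atp5f1b at -0.062, and after quantile normalization they were at 0.051, -0.023 and -0.060.

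Atp5f1c, the rotating gamma subunit, read 6.01, 5.96 and 6.02 with corn oil and 6.13, 6.15 and 5.97 with anthraquinone, a difference of 0.086 ± 0.080 (SE, n = 3 per group). Atp5po, which joins the stalk to the head, read 7.92, 7.96 and 8.01 with corn oil and 8.14, 8.12 and 7.96 with anthraquinone, a difference of 0.11 ± 0.081 (SE, n = 3 per group). Atp5pb, the b subunit of the stalk, had the smallest difference of this complex and read 7.74, 7.72 and 7.59 with corn oil and 7.74, 7.78 and 7.66 with anthraquinone, a difference of 0.043 ± 0.078 (SE, n = 3 per group), adjusted p = 0.813. All 3 turned sign on the other scales. Relative to entries of similar signal Atp5f1c was at -0.093, Atp5po at -0.066 and Atp5pb at -0.14, and after quantile normalization they were at -0.072, -0.086 and -0.14. In Atp5f1c and Atp5po it was anthraquinone replicate 3 that fell among the controls. Over all members that animal had the lowest of the 3 treated values in 30 of 45 genes, replicate 2 in 10 and replicate 1 in 5. Its medians relative to the corn oil mean were 0.15, 0.038, 0.13, 0.17 and 0.025 for complexes I to V, where anthraquinone replicate 1 had 0.22, 0.12, 0.17, 0.22 and 0.16. With that animal left out, so that 2 treated values were compared with 3 controls, 41 members had separate groups in place of 33. A rise follows from leaving out the animal that was most often lowest, and fewer values separate more readily. The share over all entries was not taken for that setting.

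Other structural subunits, outside the 48, had differences much like those of the members. Of 38 written, 29 were measured, with a median of 0.17 and 27 above 0. Of the 29, 17 were separate and higher, 1 was separate and lower, and 0 passed the adjusted test. Those counts stand beside 14.9% of all entries higher and 10.3% lower, and beside 56.6 and 1.47% of the brightest twentieth. After quantile normalization 5 were separate and higher and 2 lower, against 12 and 10.6% of all entries. Relative to similar entries the median of the 29 was 0.021. Ndufab1, the acyl carrier protein itself, differed by 0.27 ± 0.065 (SE, n = 3 per group), adjusted p = 0.191, with separate groups. Cox8b, the heart and skeletal muscle isoform of subunit VIII, lay on the other side of 0. It read -0.90, -0.98 and -1.11 with corn oil and -2.21, -2.51 and -2.76 with anthraquinone, all 3 treated animals lying below the lowest control, with a difference of -1.49 ± 0.15 (SE, n = 3 per group), adjusted p = 0.077 in limma. The value was -1.48 relative to entries of similar signal and -1.48 after quantile normalization. Its probe lay below the 75th percentile on every array. No probe was matched to any of the 13 subunits encoded by mitochondrial DNA, which were not analysed here.

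Assembly factors and suppliers of the chain gave 0 genes past the adjusted test in every list. Counts of separate genes in these lists stand beside 14.9% of all entries higher and 10.3% lower, and beside 56.6 and 1.47% of the brightest twentieth. For complex I assembly, 13 of 17 genes were measured, with a median of 0.11 and 4 separate and higher. Ndufaf3 differed by 0.30 ± 0.11 (SE, n = 3 per group) and Ndufaf4, its binding partner, by 0.21 ± 0.10 (SE, n = 3 per group). For assembly of complexes II to V, 28 of 35 were measured, with a median of 0.063, 7 separate and higher and 2 lower. Atp5if1, the inhibitor of ATP synthase when it runs in reverse, read 5.85, 5.96 and 5.99 with corn oil and 6.39, 6.39 and 6.55 with anthraquinone. The lowest treated value lay 0.40 above the highest control, with a difference of 0.51 ± 0.085 (SE, n = 3 per group), adjusted p = 0.140, larger than that of any of the 45 members, and it was 0.33 relative to entries of similar signal and 0.34 after quantile normalization. Lrpprc, which stabilises mitochondrial messenger RNA, read 3.92, 3.92 and 3.81 with corn oil and 4.22, 4.29 and 4.48 with anthraquinone. Its difference was 0.45 ± 0.094 (SE, n = 3 per group), adjusted p = 0.184, and 0.34 relative to entries of similar signal and 0.37 after quantile normalization. The 2 lower genes were Bcs1l, which inserts the Rieske protein, at -0.24 ± 0.090 (SE, n = 3 per group), and Cox16, at -0.19 ± 0.099 (SE, n = 3 per group).

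Coenzyme Q synthesis had 12 of 13 genes measured, with a median of 0.14 and 3 separate and higher. Coq9 differed by 0.26 ± 0.075 (SE, n = 3 per group) and the methyltransferase Coq3 by 0.26 ± 0.076 (SE, n = 3 per group). Of 8 genes for other dehydrogenases that feed coenzyme Q, the median was 0.16 and 1 was separate, Etfdh, which passes on electrons from fatty acid oxidation, at 0.28 ± 0.11 (SE, n = 3 per group). The citric acid cycle list had 15 genes measured, a median of 0.14, 6 separate and higher and 2 lower. Dlst, of the oxoglutarate dehydrogenase complex, read 5.57, 5.50 and 5.46 with corn oil and 5.85, 5.88 and 5.86 with anthraquinone, a difference of 0.35 ± 0.069 (SE, n = 3 per group), adjusted p = 0.169. Idh3b, of the NAD-dependent isocitrate dehydrogenase, differed by 0.25 ± 0.071 (SE, n = 3 per group). Regulators of mitochondrial gene expression had a median of 0.049 over 16, with 3 separate and higher and 1 lower. As shares, those counts and the 1 of 8 dehydrogenases are near the shares in all entries. Ppargc1a, the coactivator PGC-1 alpha, read -0.88, -0.73 and -0.57 with corn oil and -0.51, -0.42 and -0.34 with anthraquinone, a difference of 0.30 ± 0.10 (SE, n = 3 per group), adjusted p = 0.239, and Polrmt, the mitochondrial RNA polymerase, differed by 0.26 ± 0.076 (SE, n = 3 per group). Carriers and porins had a median of 0.11 over 6, with 4 separate and higher, among them Slc25a5, an ADP and ATP carrier, at 0.24 ± 0.071 (SE, n = 3 per group), and the outer membrane channel Vdac1, at 0.14 ± 0.068 (SE, n = 3 per group). Vdac1 turned sign on the other scales, at -0.038 relative to entries of similar signal and -0.046 after quantile normalization. Relative to similar entries the medians of these 5 lists were 0.095, 0.087, 0.018, 0.018 and -0.068.

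Markers of cortical cell types were compared because mitochondrial content differs between tubule segments. Counts of separate genes here stand beside 14.9% of all entries higher and 10.3% lower. The 9 proximal tubule markers had a median of 0.052, with 0 separate in either direction, and a summed level of 1998 to 2349 with corn oil and 2079 to 2409 with anthraquinone, in units of the array's 75th percentile. That median turned sign to -0.13 relative to entries of similar signal and -0.082 after quantile normalization, where 1 of the 9 was separate and lower. Medians were -0.21 for 5 thick ascending limb genes (1 separate, lower), -0.50 for 2 of 4 distal convoluted tubule genes (both lower) and -0.43 for 6 principal cell genes (3 lower, 1 higher). Their summed levels were 501 to 616 and 405 to 601, 23.7 to 34.5 and 18.7 to 21.6, and 164 to 192 and 138 to 173, with corn oil and anthraquinone. Intercalated cell, podocyte, endothelial, macrophage and fibroblast lists had 5 measured genes each and medians of -0.049, -0.083, 0.0092, -0.16 and -0.0073. Relative to entries of similar signal the same 5 medians were -0.14, -0.071, -0.16, -0.15 and -0.021, and after quantile normalization -0.13, -0.054, -0.14, -0.15 and -0.016, so the endothelial median turned sign on both. Summed levels of those 5 lists overlapped between the groups. Named by the same rule, Kcnj1 was at -0.33, Calb1 at -0.62, Slc12a3 at -0.38, Scnn1b at -0.72, Hsd11b2 at -0.49, Emcn at -0.15 and Csf1r at -0.23, each a difference in log2 with separate groups. Red cell genes were separate and higher in 4 of 4, with a median of 0.66 and a summed level of 496 to 639 with corn oil and 765 to 1018 with anthraquinone. Alas2, the red cell enzyme of heme synthesis, differed by 0.86 ± 0.21 (SE, n = 3 per group) and the beta globin Hbb by 0.66 ± 0.14 (SE, n = 3 per group). The exchanger Slc4a1, which is on both the red cell and the intercalated cell list, differed by 0.35 ± 0.10 (SE, n = 3 per group). The part of these cell types in the members' values was not tested.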

How the data were processed

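Messenger RNA was measured in 6 rat renal cortices, 1 single-colour array per animal. The deposited scanner files hold spot intensity, background-corrected by Agilent Feature Extraction 10.7.1.1 before deposit per the file headers. The authors also deposited an intensity table of the same arrays, whose columns match the processed intensity divided by the array's 75th percentile (90.7 to 97.0% of probes within 0.01 log2). Its column medians were 0.109, 0.113 and 0.114 (corn oil 1, 2 and 3) and 0.109, 0.111 and 0.110 (anthraquinone 1, 2 and 3), and its scale is not given in the sources used here.

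The log2 processed intensity minus the 75th percentile of the 61657 non-control probes was used, leaving out 2 to 13 spots per array with outlier marks. A probe was kept when every array of 1 group or the other called it well above background (41310 probes). Accessions were matched to RefSeq symbols of assembly GRCr8 (27460 probes), and the brightest probe stood for its gene. Groups were compared with limma 3.58.1 in R 4.3.3, group being the only term, with Benjamini-Hochberg adjustment over all 32663 entries. The procedure was tested on simulated data.

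Members and gene lists were chosen with earlier results of these data known. Array values are given for each member with separate groups and for the extremes of each complex. From each list the genes past the adjusted test are named, or else up to 2 with the largest change among those with separate groups. A gene that met this rule is not reported here. Alternatives were other scalings, filters, probe rules, the deposited table, normexp (offset 50, on median spot signals), array weights, slide and replicate blocks, and each array left out. Same-numbered animals did not deviate together (correlations of 0.028, -0.059 and -0.0074), so replicate numbers were not used for pairing.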

Additional observations from a re-analysis of the deposited data

How the results depend on the processing

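The median over all members was 0.201 with median scaling. After quantile normalization it was 0.0127, with 0.0397, -0.0573, 0.0455, -0.00434 and -0.0659 for complexes I to V, and 0 members passed an unadjusted p under 0.05 while 3 had separate, higher groups. Ndufa6 (-0.0172), Ndufb6 (-0.0772), Ndufb10 (-0.00126), Sdhb (-0.0455), Uqcrc1 (-0.0141), Cox4i1 (-0.0108), Cox6c (-0.0178), Cox8a (-0.0526) and Atp5pd (-0.0229), all with separate groups before, then turned sign, as did Ndufb8 (-0.14), Sdha (-0.13), Sdhd (-0.069), Cox5a (-0.0043), Atp5f1b (-0.060), Atp5f1c (-0.072), Atp5pb (-0.14) and Atp5po (-0.086), whose groups overlapped. Relative to entries of similar signal it was 0.00454, with 0.0273, -0.0767, 0.0107, 0.0212 and -0.0643, and 1 member passed the unadjusted p, 4 were separate and higher and 2 separate and lower. Ndufa6 (-0.0190), Ndufb6 (-0.0740), Ndufb10 (-0.0182), Ndufs1 (-0.0110), Ndufs3 (-0.00182), Sdhb (-0.0714), Sdhc (-0.00691), Uqcrc1 (-0.0433), Uqcrc2 (-0.00837), Cox6c (-0.0138), Cox8a (-0.0330) and Atp5pd (-0.0146) turned sign there, as did Ndufb8 (-0.099), Sdha (-0.11), Sdhd (-0.082), Atp5f1b (-0.062), Atp5f1c (-0.093), Atp5pb (-0.14) and Atp5po (-0.066). The cause was not tested. With the mean of its probes Ndufs4 was at -0.0130.

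With no filter on dim probes 3 members passed the adjusted test. No member did under any other setting tried. With slide as a block, and equally without corn oil replicate 1, complex III was at 0.209, and leaving out each array gave 0.121 to 0.209. Leaving out each array gave 8 to 15 members past the unadjusted p, against 19 with all arrays (8 when replicate 2 of either group was dropped, 9 for anthraquinone replicate 1, 11 for corn oil replicate 3), 33 to 41 separate and higher, and 0 to 1 separate and lower (Cycs, by its brightest probe, when the third control was dropped). Within slide 2 alone, that is leaving out corn oil replicate 1, the median of all members was 0.182 and 36 were separate and higher. Groups separate more readily with 1 array left out, and the share over all entries was not taken for these counts. With a replicate block 7 members passed the unadjusted p, but the numbers do not pair the animals. The median over all members and the complex medians stayed within the spread between animals, and kept their sign, with normexp correction (0.161 over all members), both filters, the mean of probes, the deposited table and array weights. Of 33 members with separate groups, all kept their sign with the deposited table, normexp, array weights and each array left out.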
